A study of Mus musculus with 12 samples.

Results

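The 9 genes described here encode 2 neurotrophins (Bdnf, Ntf3), 2 neurotrophin receptors (Ntrk2, Ntrk3), the neuronal pentraxins and their receptor (Nptx1, Nptx2, Nptxr) and 2 granins (Vgf, Scg2), of 52636 genes counted in each deposited table. They were named as neurotrophins and secreted factors known to respond to neuronal activity, but were chosen with earlier results of these data known. Shares over all genes set beside them are therefore descriptions. All 9 passed the filter on low counts in every fit. The study sequenced 12 libraries of total RNA, 3 in each of 4 groups, all from dentate gyrus of the mouse strain C57BL/6. The WT group was compared with a KO group labelled as lacking Fst, the gene of follistatin, a secreted protein that binds activins. Libraries of the GFP vector group were labelled KO with AAV9-CB::GFP, a serotype of adeno-associated virus that carries green fluorescent protein. Libraries of the Fst vector group were labelled OE with AAV9-CB::Fst, and the labels did not say whether these animals also carried the KO allele. Animal ages, the time after virus, the injection site and whether the KO was confined to a cell type were not given in the sources used here. WT and KO stood in one table (libraries M1, F1 and M2 of each group), and the vector groups in another (M1, M2 and F). Titles and descriptions gave different sexes for F1 and M2 of WT and of KO, so libraries are called here by their titles. The wording on mice leaves it unclear whether a library is 1 animal or several, and the p-values given here reflect library-to-library spread, which may be partly technical.

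Neurotrophins are small secreted proteins that bind Trk receptor tyrosine kinases. BDNF, the product of Bdnf, binds TrkB (Ntrk2) and neurotrophin-3, the product of Ntf3, binds mainly TrkC (Ntrk3). In the hippocampus the dentate granule cells make BDNF and send it along the mossy fibres, and seizures or strong activity are known to raise Bdnf RNA there and to lower Ntf3 RNA. Neuronal pentraxins are secreted at synapses, where they gather AMPA-type glutamate receptors, and Nptxr is the member of the family anchored in the membrane. Vgf and Scg2 encode granins, cargo of dense core vesicles that is cut into peptides.

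Promoter sequence was at hand for 4 of the 9 genes (Bdnf, Ntf3, Ntrk2 and Scg2), as 11 RefSeq promoters on GRCm38.p6 that run from 250 bases before a start site to 50 bases after it. Both strands were searched for TGACGTCA, the full cAMP response element known to bind CREB, and for its part TGACG, for the E-box CACGTG, and for GCGTG, the core bound by ARNT dimers. The Scg2 promoter held TGACGTCA from −68 to −61 before its start site, a motif present in 1.79% of 32851 promoters of this length. TGACG, present in 20.8% of promoters, lay in 1 of the 7 Bdnf promoters, on the reverse strand from −35 to −31, and CACGTG, present in 7.15%, lay in 1 of the 2 Ntf3 promoters from −231 to −226. GCGTG, present in 32.4% of promoters, lay in 2 of the 7 Bdnf promoters, in 1 of the 2 Ntf3 promoters and in those of Ntrk2 and Scg2. The sequences that hold the first 3 motifs are shown because they place these motifs in members described below, and capitals mark TGACGTCA, TGACG (here read on the other strand as CGTCA) or CACGTG. A match describes these letters and shows no binding. The Ntf3 stretch stops where a longer GENCODE transcript begins. For Scg2 only 30 bases are shown, because its motif lies inside the gene as GENCODE draws it. That gene begins at 79440120 on the minus strand, so the motif is upstream of the RefSeq start site only. The Bdnf stretch is chr2:109692186-109692435 on the plus strand, the Ntf3 stretch chr6:126166911-126166994 on the minus strand and the Scg2 stretch chr1:79440076-79440105 on the minus strand.
Bdnf: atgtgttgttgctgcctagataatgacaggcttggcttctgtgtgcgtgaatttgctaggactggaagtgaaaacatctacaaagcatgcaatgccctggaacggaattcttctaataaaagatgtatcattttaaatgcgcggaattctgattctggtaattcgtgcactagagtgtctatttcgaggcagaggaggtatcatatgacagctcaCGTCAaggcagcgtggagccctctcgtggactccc
Ntf3: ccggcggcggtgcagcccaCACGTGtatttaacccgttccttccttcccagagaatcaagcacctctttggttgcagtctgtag
Scg2: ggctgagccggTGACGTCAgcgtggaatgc

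Library totals ran from 8081824 to 11331337 counts, and 20915 to 22235 genes had a count. A gene with no count could have stood at up to 0.265 to 0.371 CPM (a gene's counts over the library's total, in the usual scaled unit), the level of 3 counts. Fst checked the labels: it was at 3.57, 3.54 and 4.50 CPM in WT M1, F1 and M2, and at 0.215, 0.428 and 0.203 CPM in KO M1, F1 and M2. It was at 0, 0.0974 and 0 CPM in GFP vector M1, M2 and F, and at 204, 189 and 166 CPM in the corresponding Fst vector libraries. Markers of the labelled tissue were present: Prox1 of granule cells ranged from 226 to 457 CPM. Of the 4 choroid plexus markers, Folr1 and Kcnj13 reached at most 0.536 and 0.215 CPM, but Ttr reached 9.83 CPM, in GFP vector F, and Kl 25.1 CPM. Rgs14 of the CA3 and CA2 list was at 51.8 to 116 CPM, and Tbr1 of the neocortex list at 38.1 to 75.0 CPM. Genes annotated as ribosomal RNA took 0.0115 to 0.0209% of counts in WT F1, KO M2, GFP vector M2, Fst vector M2 and Fst vector F, and at most 0.000976% in the other 7 libraries. The GFP vector F library stood apart, with summed astrocyte markers (5 of 5 detected) at 6371 CPM against 1993 and 3187 CPM in M1 and M2 of its group, 2237 to 2615 CPM in the Fst vector libraries and 1812 to 1959 CPM in WT and KO. Gfap made up 4864 CPM of that sum, and Slc1a3 (462 CPM), Aldoc (539 CPM) and Gja1 (142 CPM) were at their lowest of the 12 libraries there. Summed granule cell markers (6 of 6 detected) were at 1382 CPM in the same library and at 1671 to 2081 CPM in the other 11. In whole tissue, fewer cells of a type and less RNA per cell cannot be told apart.

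Between genes, levels were compared as RPKM, CPM per kilobase of GENCODE M21 exon length. In WT the order was Nptx1 (256 ± 12.1 RPKM, SD, n = 3), Nptxr (154 ± 8.84), Scg2 (90.9 ± 2.60), Vgf (48.1 ± 6.86), Ntrk2 (23.5 ± 0.44), Ntrk3 (13.7 ± 0.47), Ntf3 (11.7 ± 0.75), Bdnf (10.3 ± 0.65) and Nptx2 (7.33 ± 0.41), and no neighbours in that order overlapped. The KO order was the same, but the ranges of Ntrk3 and Ntf3 overlapped, as did those of Bdnf and Nptx2. In the GFP vector group Nptx2 (41.8 ± 40.9 RPKM) and Bdnf (21.8 ± 10.9) came before Ntrk2 (19.999 ± 1.10), and Ntf3 came last (8.31 ± 6.26). All neighbours overlapped there except Ntrk2 and Ntrk3. In the Fst vector group Nptx1 (198 ± 13.2 RPKM) was followed by Scg2 (147 ± 27.9), Nptxr (146 ± 9.81), Vgf (123 ± 11.2), Nptx2 (22.8 ± 24.9), Ntrk2 (21.9 ± 2.67), Bdnf (18.5 ± 10.8), Ntf3 (17.2 ± 6.03) and Ntrk3 (10.2 ± 3.17), and the ranges of Scg2 and Nptxr overlapped, as did those of all neighbours from Nptx2 down.

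**Figure D1:**
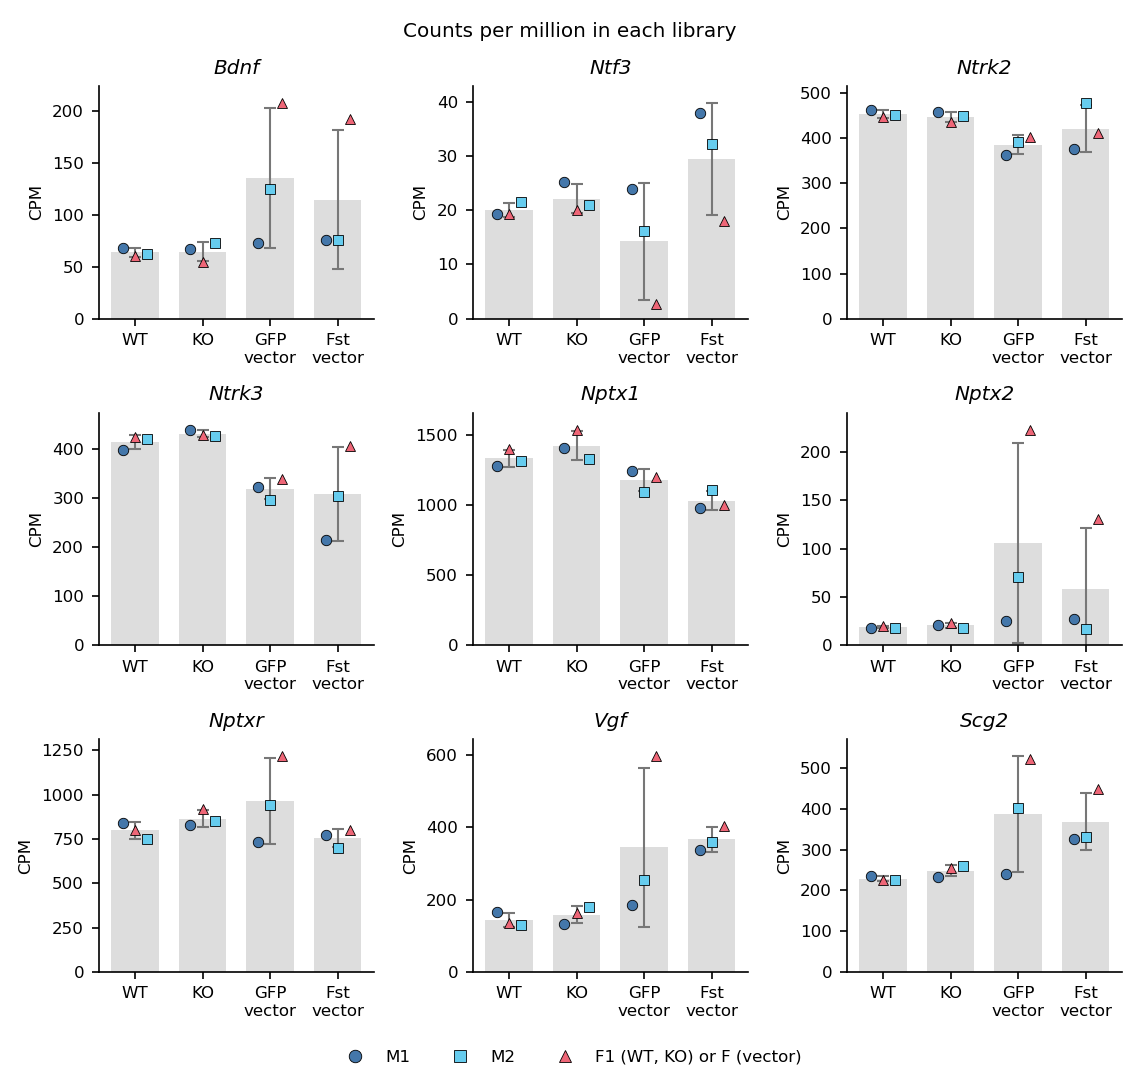
CPM (y axis, linear, one scale per gene) of the 9 genes in each of the 12 libraries (symbols), by group (x axis), with the group mean as a bar and the SD as an error bar. Bdnf stood between 54.6 and 72.7 CPM in the 6 WT and KO libraries and at 208 and 192 CPM in the vector libraries named F, where Ntf3 was lowest in its group.

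Bdnf (chr2:109674700-109727007, plus strand) was at 68.4, 60.8 and 62.3 CPM in WT M1, F1 and M2, and at 66.8, 54.6 and 72.7 CPM in KO M1, F1 and M2. It was at 73.4, 125 and 208 CPM in GFP vector M1, M2 and F, and at 75.6, 76.1 and 192 CPM in Fst vector M1, M2 and F. The WT and KO ranges overlapped, every vector library lay above every WT and KO library, and the 2 libraries named F were the highest of the 12. KO minus WT was 0.04 ± 0.09 (log2 change ± SE) with a 95% interval of −0.14 to 0.21. Fst vector minus GFP vector was −0.28 ± 0.53, with an interval of −1.58 to 1.02. The exons of Bdnf overlap those of the antisense gene Gm45346, which reached 0.191 CPM, and strand handling was not given in the sources used here.

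Ntf3 (chr6:126101412-126166910, minus strand) was at 19.3, 19.3 and 21.5 CPM in WT M1, F1 and M2, and at 25.2, 20.1 and 21.03 CPM in KO M1, F1 and M2. It was at 23.9, 16.2 and 2.67 CPM in GFP vector M1, M2 and F, and at 38.0, 32.3 and 17.9 CPM in Fst vector M1, M2 and F. The lowest value, 28 counts in GFP vector F, had a 95% Poisson interval of 1.78 to 3.86 CPM for counting error alone, below every other library. The vector groups overlapped, although the Fst vector library had the higher Ntf3 level in each same-named pair, 1.59 times in M1, 1.998 times in M2 and 6.71 times in F. The fitted difference was 1.03 ± 0.74 (log2, interval −0.82 to 2.87, edgeR's quasi-likelihood test with Benjamini-Hochberg adjustment, adjusted p = 0.739). With the replicate name as a block it was 1.28 ± 0.37 (0.38 to 2.17, adjusted p = 0.196 by edgeR).

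Of the receptors, Ntrk2 (chr13:58806569-59133970, plus strand) was at 463, 447 and 451 CPM in WT M1, F1 and M2, and at 458, 435 and 449 CPM in KO M1, F1 and M2. It was at 362, 392 and 403 CPM in GFP vector M1, M2 and F, and at 377, 478 and 411 CPM in Fst vector M1, M2 and F. Its WT and KO ranges overlapped, and the GFP vector libraries lay below both. Ntrk3 (chr7:78175959-78738012, minus strand) was at 399, 425 and 421 CPM in WT and at 439, 429 and 427 CPM in KO, in the same order of libraries. It was at 323, 296 and 338 CPM in the GFP vector libraries M1, M2 and F and at 215, 305 and 406 CPM in those of the Fst vector group, which spanned the whole GFP vector range. Ntrk3 was the only one of the 9 whose KO libraries all lay above all WT libraries, by a narrow gap. Its fitted KO minus WT difference was 0.07 ± 0.05 (log2, interval −0.04 to 0.19). The antisense gene Gm9885, inside an intron of Ntrk3, was at 4.67 to 11.3 CPM.

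Nptx1 (chr11:119538719-119547753, minus strand), the pentraxin with the highest level, was at 1281, 1404 and 1317 CPM in WT M1, F1 and M2, and at 1408, 1538 and 1332 CPM in KO M1, F1 and M2. It was at 1244, 1092 and 1199 CPM in GFP vector M1, M2 and F, and at 983, 1109 and 999 CPM in Fst vector M1, M2 and F. All 6 vector libraries lay below all 6 WT and KO libraries, while WT overlapped KO and the vector groups overlapped each other. Nptx2 (chr5:144545902-144557478, plus strand), a pentraxin known as an activity-induced gene, was at 18.3, 19.7 and 17.7 CPM in WT and at 21.2, 23.1 and 17.9 CPM in KO. It was at 24.9, 70.4 and 223 CPM in GFP vector M1, M2 and F, and at 26.7, 16.5 and 131 CPM in Fst vector M1, M2 and F. The GFP vector F library held 11.995 times the WT mean of Nptx2 and the Fst vector F library 7.03 times, whereas Fst vector M2 lay below the lowest WT library. Fst vector minus GFP vector was −0.92 ± 1.18 for Nptx2 (log2, interval −4.02 to 2.18) and −0.23 ± 0.13 for Nptx1 (−0.52 to 0.06). Nptxr (chr15:79786351-79804766, minus strand) was at 841, 803 and 750.2 CPM in WT, 829, 916 and 851 CPM in KO, 734, 941 and 1216 CPM in the GFP vector libraries and 772, 701 and 799 CPM in the Fst vector libraries. The KO libraries all lay above the Fst vector libraries, the other pairs of ranges overlapped, and GFP vector F was the highest library. Its exons overlap those of Npcd, listed at 0 in every library.

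Vgf (chr5:137026392-137033351, plus strand), a granin known to be induced by BDNF, was at 166, 134 and 128 CPM in WT M1, F1 and M2, and at 131, 164 and 179 CPM in KO M1, F1 and M2. It was at 185, 255 and 596 CPM in GFP vector M1, M2 and F, and at 337, 359 and 403 CPM in Fst vector M1, M2 and F. Each vector library lay above each WT and KO library, and the 3 Fst vector libraries fell inside the span of the GFP vector group. Scg2 (chr1:79434669-79440120, minus strand), whose RefSeq promoter holds the TGACGTCA shown above, was at 236, 225 and 225 CPM in WT. In KO it was at 233, 254 and 259 CPM. It was at 239.9, 402 and 522 CPM in GFP vector M1, M2 and F, and at 325, 331 and 449 CPM in Fst vector M1, M2 and F. GFP vector M1 stayed within the KO range, and the other 5 vector libraries lay above it. Fst vector minus GFP vector was 0.05 ± 0.42 for Vgf (log2, interval −0.95 to 1.04) and −0.11 ± 0.27 for Scg2 (−0.73 to 0.51).

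In the knockout, which asks what loss of Fst does to the dentate gyrus, the fitted differences of the 9 genes lay between −0.00 and 0.18 (log2). The difference was above 0 for 8 and below 0 for 1 (Ntrk2, −0.00 ± 0.05), and the median was 0.13 (log2) beside −0.00085 over all genes tested. None of the 9 passed edgeR's test at an adjusted p of 0.05, which 0.0268% of 14919 genes did, and none passed DESeq2, which 0.0110% of its genes did. At an unadjusted p under 0.05 stood 2 of 9, Nptxr (0.13 ± 0.06, adjusted p = 0.806 by edgeR) and Scg2 (0.14 ± 0.06, adjusted p = 0.751), beside 5.96% of all genes. Non-overlapping ranges, found for 11.0% of genes, held for 1 of 9 (Ntrk3). The intervals of Bdnf, Ntf3, Ntrk2, Ntrk3, Nptx1 and Nptx2 spanned 0 with upper bounds of 0.21, 0.38, 0.11, 0.19, 0.23 and 0.41, and that of Vgf reached 0.58.

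The Fst vector was compared with the GFP vector to ask what restoring or raising Fst does. No member's ranges separated these groups: 3 differences were above 0 (Ntf3, Ntrk2, Vgf) and 6 below, with a median of −0.11 beside 0.01 over all genes. None of the 9 passed edgeR (0.0798% of 15034 genes did) or DESeq2 (1.69%), none had an unadjusted p under 0.05 (9.51%), and all 9 had overlapping ranges (16.5% of genes did not overlap). Their adjusted p-values in edgeR ran from 0.580 to 0.981. The widest intervals belonged to Nptx2, Ntf3, Bdnf and Vgf, which also had the largest SDs inside the GFP vector group. The replicate name was also used as a block, taken as pairing because same-named libraries deviated together in these same counts. That was least clear for M2 (r = 0.14, beside 0.13 for GFP vector M1 with Fst vector M2). With the block none of the 9 passed (0.938% of genes did) and 2 had an unadjusted p under 0.05 (14.3% did), Ntf3 as above and Nptxr (−0.36 ± 0.15, adjusted p = 0.323 by edgeR). Without both F libraries, Ntf3 was 0.78 ± 0.23 and Vgf 0.63 ± 0.19, with adjusted p of 0.341 and 0.348 in edgeR.

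**Figure D2:**
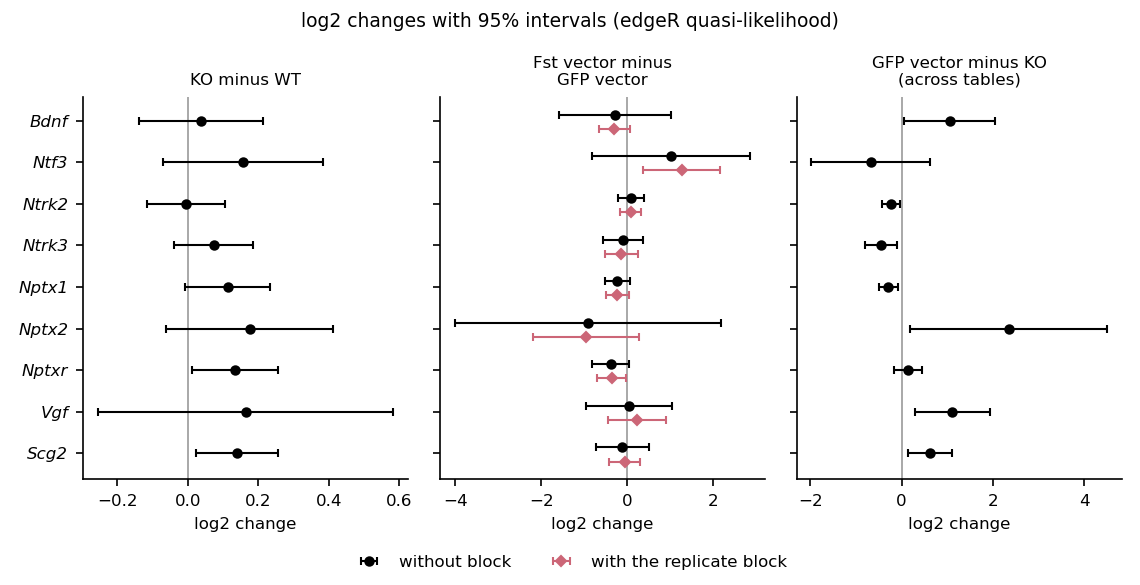
Fitted log2 changes (x axis, a different scale in each panel) of the 9 genes with 95% intervals, in 3 comparisons, with red diamonds for the fit with the replicate block. Intervals in KO minus WT are narrow and near 0, and those of Nptx2, Ntf3, Bdnf and Vgf are wide in the vector comparisons.

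Whether a gene responded differently in the vector comparison than in the knockout comparison was tested as a difference of the effects in 1 fit of all 12 libraries. That difference was above 0 for 2 of 9 and below 0 for 7, with a median of −0.26 beside −0.00 over all genes. None passed edgeR (0.281% of 15632 genes did) or DESeq2 (1.63%), and 2 had an unadjusted p under 0.05 (9.95%), Nptx1 (−0.35 ± 0.14, adjusted p = 0.389 by edgeR) and Nptxr (−0.52 ± 0.20, adjusted p = 0.368).

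The GFP vector group and KO share the knockout label and differ in the vector and in the table, which cannot be told apart. Here 7 of 9 genes had an unadjusted p under 0.05, beside 22.8% of all genes, but none passed edgeR at an adjusted p of 0.05, beside 3.58% of genes. Higher in the GFP vector group were Nptx2 (2.34 ± 0.94 log2, adjusted p = 0.186 by edgeR), Vgf (1.11 ± 0.37, 0.117), Bdnf (1.05 ± 0.44, 0.196) and Scg2 (0.62 ± 0.22, 0.120). Lower were Ntrk3 (−0.45 ± 0.16, 0.116), Nptx1 (−0.29 ± 0.10, 0.101) and Ntrk2 (−0.23 ± 0.09, 0.159). Ntf3 (−0.67 ± 0.57) and Nptxr (0.14 ± 0.14) had intervals that spanned 0. Ranges did not overlap for 6 of 9 (Bdnf, Nptx2 and Vgf higher, Ntrk2, Ntrk3 and Nptx1 lower), beside 29.1% of genes. DESeq2 passed 2 of 9, Nptx1 (adjusted p = 0.0287) and Scg2 (0.0432), beside 7.88% of its genes. Without the GFP vector M1 library, which had the lowest Vgf and Scg2 of its group, edgeR passed Vgf (adjusted p = 0.0170) and Scg2 (0.00183). Ntrk3 passed with no filter on low counts or without Fst vector M1 (0.0164 in each), without Fst vector F (0.0441) and without both F libraries (0.0438). Other fits were weaker: the number at an unadjusted p under 0.05 in edgeR fell from 7 to 3 without GFP vector M2. It was 4 without GFP vector F, KO M1 or KO M2, and 5 without KO F1 or any 1 of the WT libraries. This comparison and the difference of the effects share the GFP vector and KO libraries.

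Variation among libraries of 1 group was larger in both vector groups than in WT and KO for the median gene, and for these genes except Nptx1 and Vgf. The SD of log2 CPM (0.5 CPM added) had a median over all genes of 0.11 in WT, 0.12 in KO, 0.20 in the GFP vector group and 0.21 in the Fst vector group. In WT and KO all 9 genes had an SD of at most 0.23, the value of Vgf in KO. Nptx1 had 0.105 in KO against 0.0969 and 0.0944 in the GFP and Fst vector groups. Vgf had 0.199 in WT against 0.130 in the Fst vector group. In the GFP vector group the SD was 1.57 for Nptx2, exceeded by 0.467% of genes, 1.56 for Ntf3 (0.473%), 0.87 for Vgf (3.28%), 0.75 for Bdnf (5.05%), 0.57 for Scg2 (10.5%) and 0.36 for Nptxr (24.7%). Nptx1, Ntrk3 and Ntrk2 had SDs of 0.10, 0.10 and 0.08 there, below the median gene. In the Fst vector group it was 1.54 for Nptx2 (0.230%), 0.77 for Bdnf (2.35%), 0.56 for Ntf3 (7.13%) and 0.46 for Ntrk3 (11.8%), but 0.26 for Scg2 and 0.13 for Vgf, which 74.0% of genes exceeded. The highest library held 8.96 times the lowest for Nptx2, 8.94 times for Ntf3 and 2.83 times for Bdnf in the GFP vector group, and 7.91, 2.12 and 2.54 times in the Fst vector group. In both vector groups F was the highest library for Bdnf, Nptx2, Nptxr, Vgf, Scg2 and Ntrk3 and the lowest for Ntf3. F is 1 library of each group, so its labelled sex and any other property of that library cannot be told apart.

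**Figure D3:**
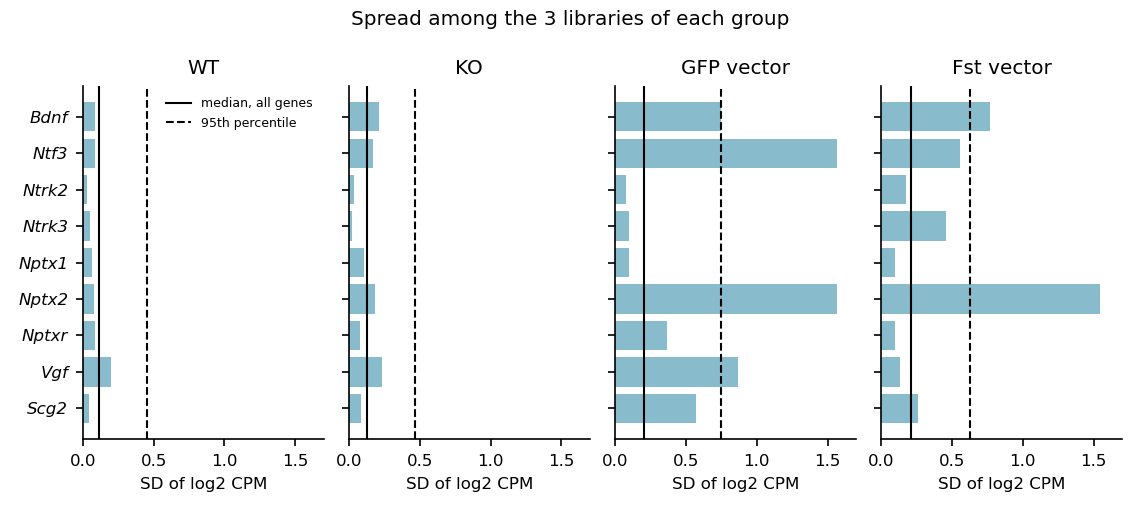
SD of log2 CPM among the 3 libraries of each group (x axis) for the 9 genes (bars), with the median (solid line) and the 95th percentile (dashed line) over 15632 genes. In the GFP vector panel Nptx2 (1.57), Ntf3 (1.56) and Vgf (0.87) pass the dashed line, and in the Fst vector panel Nptx2 (1.54) and Bdnf (0.77) do.

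The same libraries moved in cell type markers, whose part in the members' values was not tested. Summed microglia markers were at 219, 243 and 294 CPM in GFP vector M1, M2 and F, but at 243, 197 and 186 CPM in the Fst vector libraries. Among them P2ry12 was lowest in GFP vector F (14.8 CPM). Summed endothelium markers were at 65.7, 76.6 and 128 CPM, and at 109, 118 and 115 CPM, in the same libraries. Summed oligodendrocyte markers were at 1048 to 1671 CPM in the vector libraries, against 862 to 947 CPM in WT and KO. Gfap, the intermediate filament of astrocytes, was at 566, 1555 and 4864 CPM in GFP vector M1, M2 and F, and at 613, 620.0 and 1033 CPM in Fst vector M1, M2 and F, against 369.8 to 464 CPM in WT and KO. Aqp4, the astrocyte water channel, was likewise highest in GFP vector F (102, 183 and 364 CPM in M1, M2 and F), but Slc1a3 (493, 579 and 462 CPM), Aldoc (682, 708 and 539 CPM) and Gja1 (149, 162 and 142 CPM) were lowest in F, so the 5 astrocyte markers did not move together. Calb1, a calcium buffer of mature granule cells, was at 234, 135 and 67.8 CPM in GFP vector M1, M2 and F, and at 212, 201 and 93.9 CPM in the Fst vector libraries, against 204 to 243 CPM in WT and KO. Of the other granule cell markers, Dsp (288, 102 and 98.3 CPM), C1ql2 (712, 779 and 618 CPM), Dock10 (296, 304 and 169 CPM) and Plk5 (190.1, 211 and 61.3 CPM) were also lowest in GFP vector F, whereas Prox1 (360.2, 324 and 367 CPM) was highest there. In the Fst vector group F was lowest for Calb1, Dsp (34.2 CPM) and Plk5 (219.7 CPM), highest for Prox1 (328 CPM) and Dock10 (335 CPM), and intermediate for C1ql2 (678 CPM). In the GFP vector group M1 was lowest and F highest for Bdnf, Nptx2, Nptxr, Vgf, Scg2, Ntrk2, Gfap and Aqp4. The reverse held for Ntf3, Calb1 and Dsp. In Fst vector F Bdnf was at 192 CPM, summed astrocyte markers at 2615 CPM and Calb1 at 93.9 CPM. In GFP vector M2 the same values were 125, 3187 and 135 CPM. Gfap and Calb1 were singled out after their values were seen.

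**Figure D4:**
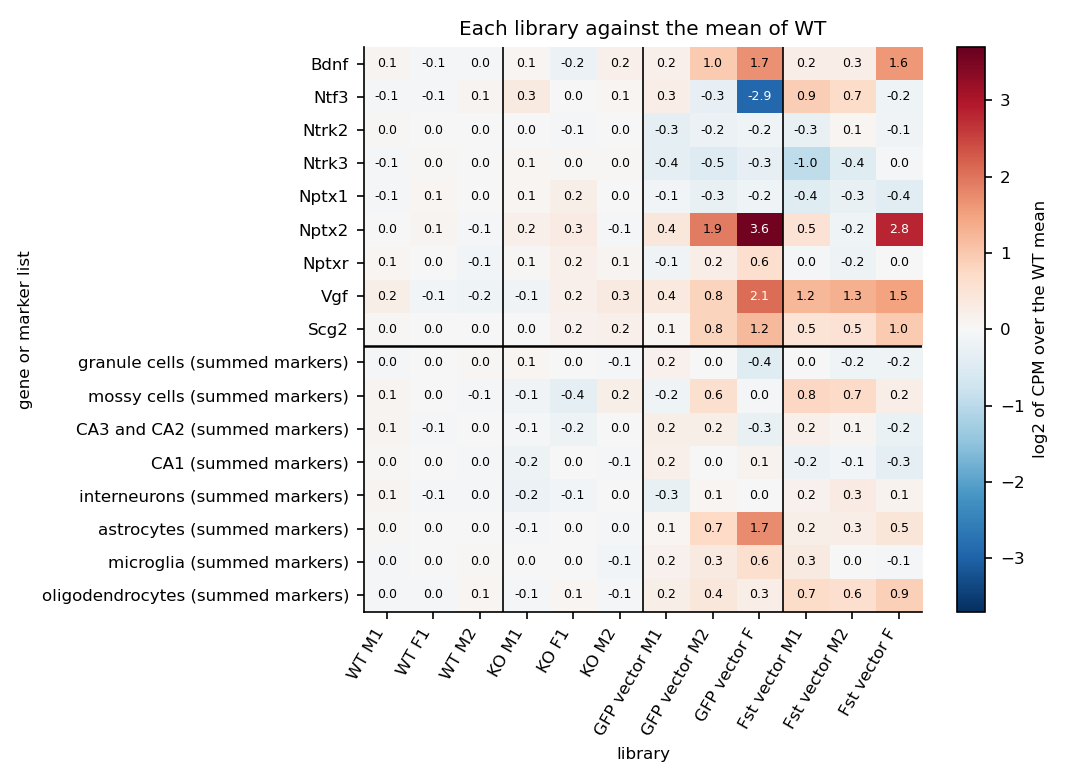
log2 of CPM over the WT mean (colour and number in each cell) in the 12 libraries (columns) for the 9 genes (upper rows) and the summed markers of 8 cell types (lower rows). GFP vector F shows Nptx2 at 3.6, Vgf at 2.1, Bdnf at 1.7, Ntf3 at −2.9 and astrocyte markers at 1.7, and Fst vector F shows Nptx2 at 2.8, Bdnf at 1.6 and astrocyte markers at 0.5.

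Across the 12 libraries, log2 CPM of Nptx2 had a Pearson r with Bdnf of 0.96, Scg2 of 0.93, Vgf of 0.82 and Nptxr of 0.55, whereas Ntf3 had −0.68, Nptx1 −0.61, Ntrk2 −0.40 and Ntrk3 −0.20. These r values describe 12 points that share groups, tables and libraries, and the F libraries weigh on them. Without both F libraries (n = 10) they were 0.81 for Nptx2, 0.82 for Scg2, 0.55 for Vgf, 0.24 for Nptxr and −0.14 for Ntf3. Those of Nptx1, Ntrk2 and Ntrk3 were then −0.68, −0.42 and −0.55, further below 0. Over the 6 vector libraries alone r was not clearly below 0 for these genes: −0.05 for Nptx1, 0.06 for Ntrk2 and 0.65 for Ntrk3. There it was 0.98 for Nptx2, 0.91 for Scg2, 0.75 for Nptxr, 0.67 for Vgf and −0.79 for Ntf3. The 5 genes most like Bdnf over the 12 libraries were Shisa8 (0.98), Mapk4 (0.98), Fhl2 (0.98), Plk2 (0.97) and 6430548M08Rik (0.97). Over the 6 vector libraries they were Gm10053 (0.996), Idi1 (0.99), Fbln2 (0.99), Plk2 (0.99) and Sorcs1 (0.99). Shisa8, of a family of AMPA receptor auxiliary proteins, was at 1.98, 8.96 and 40.6 CPM in GFP vector M1, M2 and F, 2.45, 1.32 and 18.3 CPM in the Fst vector libraries and 0.321 to 1.22 CPM in WT and KO. Plk2, a kinase known to be induced by synaptic activity, was at 119, 171 and 234 CPM in GFP vector M1, M2 and F, 117, 113 and 206 CPM in the Fst vector libraries and 107 to 117 CPM in WT and KO. Gm10053 was at no more than 1.55 CPM in any library.

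The list of other neurotrophin ligands and receptors held 9 genes, of which 6 were tested; those too low included Ntf5 and the p75 receptor gene Ngfr. None of the 6 passed edgeR or DESeq2 in KO minus WT (3 higher, 3 lower, median −0.01), in the vector comparison (2 higher, 4 lower, median −0.11), in the difference of the effects, or in GFP vector minus KO (3 higher, 3 lower, median −0.05). In KO minus WT the smallest p-values belonged to Sort1 (0.07 ± 0.05 log2) and Kidins220 (0.02 ± 0.06) above 0, and to Sorcs2 (−0.22 ± 0.07) and Sorcs1 (−0.10 ± 0.27) below it. In the vector comparison Sorcs2 (0.06 ± 0.22) was among them above 0, and below it they belonged to Sort1 (−0.10 ± 0.14) and Kidins220 (−0.12 ± 0.18). For GFP vector minus KO they belonged to Sorcs3 (1.47 ± 0.64) and Sorcs1 (2.70 ± 1.33), and to Sort1 (−0.16 ± 0.10) and Kidins220 (−0.20 ± 0.14). Sorcs1, a sorting receptor of the sortilin family, was at 1.86, 14.9 and 43.1 CPM in GFP vector M1, M2 and F, 1.87, 3.04 and 39.5 CPM in the Fst vector libraries and 2.26 to 4.07 CPM in WT and KO. Sorcs3, of the same family, was at 16.5, 33.2 and 112 CPM, and at 24.5, 34.8 and 64.5 CPM, in the corresponding libraries.

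Of 16 Trk adapters and effectors, all tested, none passed edgeR in any of the 4 comparisons; the medians were 0.01 in KO minus WT, −0.04 in the vector comparison and 0.03 in GFP vector minus KO. The smallest p-values in KO minus WT were those of Gab1 (0.22 ± 0.16), Sh2b2 (0.20 ± 0.23), Rapgef1 (−0.07 ± 0.06) and Frs2 (−0.07 ± 0.07). In the vector comparison they were those of Sh2b2 (0.55 ± 0.25), Frs3 (0.22 ± 0.22), Shc2 (−0.21 ± 0.11) and Sos1 (−0.19 ± 0.14). For GFP vector minus KO they were those of Grb2 (0.34 ± 0.16), Shc2 (0.16 ± 0.09), Shc3 (−0.96 ± 0.30) and Sos2 (−0.32 ± 0.13). Shc3, an adapter of neurons that binds Trk receptors, was at 8.41, 10.2 and 10.1 CPM in GFP vector M1, M2 and F against 16.0 to 20.1 CPM in KO, ranges that did not overlap (adjusted p = 0.0866 by edgeR, 0.0249 by DESeq2). DESeq2 passed no other gene of this list in any comparison, and in GFP vector minus KO it passed 7.88% of its genes.

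Dense core vesicle cargo and processing genes, the machinery that packs and cuts granins and proneurotrophins, numbered 18, all tested. In KO minus WT 13 were above 0 and 5 below (median 0.06), and none passed edgeR or DESeq2. At an unadjusted p under 0.05 in edgeR stood 2, beside 5.96% of all genes, the granins Chgb (0.20 ± 0.06, adjusted p = 0.451) and Chga (0.16 ± 0.07, 0.761). Both had non-overlapping ranges, as did 11.0% of genes. Pam (−0.10 ± 0.06) and Scg3 (−0.04 ± 0.06) led below 0. In the vector comparison 8 were above 0 and 10 below (median −0.02), none passed edgeR, and Syt4 (0.47 ± 0.17), Pam (0.41 ± 0.16), Pcsk5 (−1.55 ± 0.26, adjusted p = 0.117 by edgeR but 4.7e-06 by DESeq2) and Pcsk2 (−0.34 ± 0.15) had the smallest p-values. Pcsk5, a proprotein convertase, passed edgeR in the difference of the effects only (−1.71 ± 0.30, adjusted p = 0.0294), where DESeq2 passed it too. It was at 37.4, 56.5 and 83.1 CPM in GFP vector M1, M2 and F and at 21.4, 21.1 and 19.4 CPM in the Fst vector libraries, against 32.1 to 40.3 CPM in WT and KO. That call was lost with a term for the ribosomal RNA share and without any 1 of the WT, KO or Fst vector libraries, at adjusted p of 0.0608 to 0.129. In GFP vector minus KO 13 were above 0 and 5 below (median 0.19), none passed edgeR, and Pcsk1n (0.77 ± 0.21, adjusted p = 0.0611 by edgeR and 0.00681 by DESeq2), Plat (0.47 ± 0.16), Syt4 (−0.36 ± 0.14) and Cadps (−0.23 ± 0.10) had the smallest p-values.

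AMPA receptor subunits and the pentraxin-cleaving protease Adam17, 5 genes, had medians of 0.00 in KO minus WT, −0.06 in the vector comparison and −0.15 in GFP vector minus KO. The smallest p-values in KO minus WT were those of Gria3 (0.03 ± 0.06), Adam17 (0.03 ± 0.11), Gria4 (−0.08 ± 0.09) and Gria2 (−0.01 ± 0.06). In the vector comparison all 5 lay below 0 and none passed edgeR or DESeq2, with Gria1 (−0.17 ± 0.17) and Gria2 (−0.09 ± 0.17) leading. In GFP vector minus KO Gria2, the subunit that sets calcium permeability, fell by 0.55 ± 0.13 on the log2 scale (adjusted p = 0.0389 by edgeR, 0.00295 by DESeq2), from 1431, 1241 and 1414 CPM in KO M1, F1 and M2 to 1088, 956 and 791 CPM in GFP vector M1, M2 and F. Gria4 (0.07 ± 0.17) and Adam17 (0.04 ± 0.15) led above 0. The Gria2 call was lost with the replicate block, without any 1 of the WT or KO libraries, without GFP vector M2 or F and without both F libraries (adjusted p of 0.0640 to 0.140).

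Of 17 other activity-induced secreted factors, 16 were tested in KO minus WT and 17 elsewhere, and none passed edgeR in any comparison; the medians were 0.04 in KO minus WT, −0.20 in the vector comparison and 0.13 in GFP vector minus KO. Npy (0.29 ± 0.11), Penk (0.44 ± 0.18), Serpini1 (−0.13 ± 0.08) and Igf1 (−0.39 ± 0.27) had the smallest p-values in KO minus WT. In the vector comparison they were those of Sst (0.87 ± 0.29), Tac1 (0.89 ± 0.32), Lif (−1.36 ± 0.42) and Pdyn (−0.43 ± 0.16). Npy (2.08 ± 0.54), Lif (1.45 ± 0.46), Sst (−0.75 ± 0.28) and Vegfa (−0.33 ± 0.14) had them in GFP vector minus KO. There DESeq2 passed 3 of the list, Npy (adjusted p = 0.00416), Penk (0.00704) and Sst (0.0427), beside 7.88% of its genes. It passed none of the list in the other comparisons. Penk, the precursor of enkephalins, was at 22.4, 252 and 479 CPM in GFP vector M1, M2 and F, 58.5, 52.6 and 519 CPM in the Fst vector libraries and 9.0 to 20.7 CPM in WT and KO. Npy, the neuropeptide Y precursor, was at 33.5, 106 and 214 CPM in GFP vector M1, M2 and F, but at 56.3, 39.7 and 53.0 CPM in the Fst vector libraries, where F was not the highest. Inhba, the activin subunit that follistatin binds as part of activin A, was at 10.5, 17.8 and 90.2 CPM in GFP vector M1, M2 and F, 6.97, 10.6 and 36.9 CPM in the Fst vector libraries and 9.76 to 13.5 CPM in WT and KO. Inhba was singled out after its values were seen.

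Immediate-early genes, the first genes transcribed after neuronal activity, numbered 23, all tested, with medians of 0.02 in KO minus WT, 0.21 in the vector comparison and −0.10 in GFP vector minus KO. In KO minus WT none passed edgeR or DESeq2, and Fosl2 (0.34 ± 0.07, adjusted p = 0.118 by edgeR), Jun (0.14 ± 0.06), Sik1 (−0.52 ± 0.14) and Per1 (−0.18 ± 0.06) had the smallest p-values. In the vector comparison none passed edgeR, and Nr4a3 (1.11 ± 0.21, adjusted p = 0.141 by edgeR but 0.000928 by DESeq2), Nr4a2 (0.48 ± 0.14), Gadd45g (−0.51 ± 0.21) and Homer1 (−0.38 ± 0.21) had them. Nr4a3, an orphan nuclear receptor, fell by 1.11 ± 0.21 (log2) in GFP vector minus KO (adjusted p = 0.0229 by edgeR), from 37.1, 40.4 and 59.4 CPM in KO M1, F1 and M2 to 23.3, 23.9 and 17.1 CPM in GFP vector M1, M2 and F. That call was lost without any 1 of the KO libraries, without GFP vector M2 or F and without both F libraries (adjusted p of 0.0508 to 0.0999). Gadd45g (0.41 ± 0.17) and Gadd45b (0.92 ± 0.42) led above 0. DESeq2 passed Nr4a3 there too (adjusted p = 7.7e-05), and also Npas4 (−1.34 by DESeq2, adjusted p = 0.0174), beside 7.88% of its genes. Fos stood between 1.85 and 7.62 CPM in all 12 libraries, and GFP vector F and Fst vector F, the libraries highest in Bdnf, held 4.96 and 2.21 CPM. Arc, an activity-induced gene of dendrites, was at 23.6, 15.7 and 100 CPM in GFP vector M1, M2 and F, 30.5, 26.4 and 64.7 CPM in the Fst vector libraries and 26.2 to 33.6 CPM in WT and KO. Fos and Arc were singled out after their values were seen.

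Regulators known to act at Bdnf promoters numbered 14, all tested, with medians of −0.03 in KO minus WT, −0.08 in the vector comparison and −0.08 in GFP vector minus KO. None passed edgeR or DESeq2 in KO minus WT, where Crtc1 (0.08 ± 0.06), Usf1 (0.08 ± 0.08) and Mef2c (−0.06 ± 0.06) were among those with the smallest p-values, or in the vector comparison, where Usf1 (0.12 ± 0.15), Usf2 (0.08 ± 0.18), Arnt2 (−0.46 ± 0.12) and Mef2d (−0.30 ± 0.13) had them. Crtc1, a coactivator of CREB, fell by 0.47 ± 0.11 (log2) in GFP vector minus KO (adjusted p = 0.0360 by edgeR), from 580, 630.2 and 554 CPM in KO M1, F1 and M2 to 493, 425 and 369 CPM in GFP vector M1, M2 and F. That call was lost with the replicate block, without any 1 of the WT or KO libraries, without GFP vector M2 or F and without both F libraries (adjusted p of 0.0585 to 0.119). Bhlhe41 (1.47 ± 0.46) and Usf1 (0.20 ± 0.12) led above 0, and DESeq2 passed Crtc1 (adjusted p = 0.00148) and Bhlhe41 (0.0225), beside 7.88% of its genes.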

How the data were processed

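The authors deposited 2 count tables; per the file headers their values are read counts, not normalized, with 1 line per Ensembl gene. WT and KO share a table, and so do both vector groups. GRCm38 is the build in the submitters' processing notes; how reads were aligned, counted and assigned to strands was not given in the sources used here. Lines naming no gene (12 in the vector table, 6 in the other) were left out, leaving 52636 genes, of which 52489 had an entry in GENCODE M21 (symbols, exon lengths). Libraries were grouped by their descriptions. The 9 members and the gene lists were chosen with earlier results of these data known.

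CPM are counts over the library's total, 8081824 to 11331337. Tests used edgeR 4.0.16 in R 4.3.3 on the deposited counts (TMM, filterByExpr, robust quasi-likelihood fit, Benjamini-Hochberg over all genes tested, threshold 0.05). WT and KO were fitted alone, the vector groups alone, and all 12 libraries together for the difference of the effects and for GFP vector minus KO. SEs are the log2 change over the square root of the F statistic. The edgeR and DESeq2 scripts were tested on simulated data.

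Alternatives were DESeq2 1.42.0, library totals in place of TMM, no filter, a term for the sex letter in the title, a term for the ribosomal RNA share, the replicate block and leaving out each library; leaving out both F libraries of the vector groups was chosen after seeing the data. Same-named vector libraries deviated together from their group means (r = 0.34 for M1, 0.14 for M2 and 0.40 for F, over genes, each above the 0.1 taken as pairing; the pairing comes from the titles' names), although GFP vector M1 and Fst vector M2 also had 0.13. For WT and KO the values were 0.06, 0.10 and −0.11, and those libraries were not taken as paired. No 2 libraries of a group agreed within sampling noise (chi-square per degree of freedom 2.49 to 34.7).

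Named beside the members are list genes past adjusted p 0.05, otherwise the 2 with the smallest p in each direction of a list. For the difference of the effects only the genes past the threshold are printed. A few list genes that this rule names are not reported here. The 5 genes most like Bdnf have the highest Pearson r of log2 CPM (0.5 CPM added).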

Additional observations from a re-analysis of the deposited data

Results flagged for a closer look

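Pcsk5, a proprotein convertase outside the 9 members, had an Fst vector minus GFP vector change that differed from its KO minus WT change by −1.71 (log2, edgeR's quasi-likelihood test of the difference, adjusted p = 0.0294). It was at 19.4 to 21.4 CPM in the 3 Fst vector libraries and at 37.4 to 83.1 CPM in the 3 GFP vector libraries. That call held in 9 of 19 alternative fits, and the adjusted p reached 0.129 in the edgeR fits that lost it. The part of Pcsk5 in the members' values was not tested.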

How the results depend on the processing

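No member passed adjusted p 0.05 under any alternative in KO minus WT (12 fits), Fst vector minus GFP vector (13 fits) or the difference of the effects (19 fits); in GFP vector minus KO 8 of 171 values did, as given above. Of the members' values under alternatives, 3 of 108, 7 of 117, 8 of 171 and 2 of 171 changed sign in these comparisons, in that order.

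Leaving out 1 library at a time gave, in KO minus WT, −0.053 to 0.14 for Bdnf and −0.017 to 0.012 for Ntrk2. In Fst vector minus GFP vector it gave −0.87 to 0.17 for Bdnf, −2.33 to 0.24 for Nptx2, −0.36 to 0.17 for Scg2, −0.25 to 0.70 for Vgf and −0.33 to 0.11 for Ntrk3. In the difference of the effects it gave −0.91 to 0.12 for Bdnf, −2.51 to 0.050 for Nptx2, −0.41 to 0.53 for Vgf, −0.50 to 0.020 for Scg2, −0.41 to 0.028 for Ntrk3 and −0.0048 to 0.16 for Ntrk2. In GFP vector minus KO it gave −0.0686 to 0.29 for Nptxr. Bdnf, Nptx2 and Scg2 changed sign in both comparisons without GFP vector F, as did Vgf in the difference and Nptxr in GFP vector minus KO. Ntrk3 changed sign without Fst vector M1, Ntrk2 (difference) without Fst vector M2, and Vgf (vector comparison) without GFP vector M1, GFP vector M2 or Fst vector F. Without both F libraries Nptxr was −0.0684 in GFP vector minus KO and Vgf 0.45 in the difference, and with the replicate block Vgf was 0.058 there.

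The number of genes passing over the whole table was less stable, and the cause was not tested. In KO minus WT 4 genes passed, against 46 with no filter, 23 with the replicate block, 30 with the sex term and 2 to 17 without 1 library. In Fst vector minus GFP vector 12 passed, against 249 with DESeq2, 230 with no filter, 141 with the replicate block, 132 with the sex term, 27 without both F libraries and 1 to 29 without 1 library. In the difference of the effects 44 passed, against 240 with DESeq2, 210 with no filter, 289 with the replicate block, 80 with the sex term, 187 without both F libraries and 13 to 183 without 1 library. In GFP vector minus KO 559 passed, against 1245 with DESeq2, 1190 with no filter, 214 with the replicate block, 354 without both F libraries and 7 to 1831 without 1 library. TMM-scaled CPM moved 1 group mean of a member by more than its SD, Ntrk3 in KO, to 440 CPM, and adding 1 CPM in place of 0.5 moved no SD by that much. The replicate block changed no member's call. With 3 libraries a group, Ntf3 at 28 counts in GFP vector F is the member value with the largest relative counting error.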
